A study of Mus musculus with 25 samples.

Results

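The cytosolic ribosomal protein genes code for the proteins that, together with ribosomal RNA, form the large and small subunits of the ribosome. They were taken by symbol: Rpl or Rps followed by a number and optionally by a, x or l, the stalk proteins Rplp0, Rplp1 and Rplp2, and Rpsa. This gave 81 of the 24358 genes of the table, 49 of the large and 32 of the small subunit. Of these, 5 were set apart as paralogs of other members (Rpl3l, Rpl10l, Rpl39l, Rps4l and Rps27l), and 76 are the common genes. The RNA came from sperm that swam out of the cauda epididymis of males 14 weeks old, and it was read by all-RNA-seq, in which RNA ends are treated so that coding and small non-coding RNAs enter the same library. Pregnant C57BL/6J or FVB/N females had received di-(2-ethylhexyl) phthalate (DEHP, a plasticizer) at 300 mg/kg/day or its corn oil vehicle by mouth on embryonic days 9 to 19. FVB.CTL.F1 and C57.CTL.F1 were the sons of vehicle-treated females, FVB.D300.F1 and C57.D300.F1 the sons of exposed females, and C57.D300.F2 the sons that exposed C57BL/6J F1 males had with unexposed females. Each condition had 5 libraries. No vehicle lineage of the second generation was among the 5 conditions.

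The deposited values are 1 estimated count per gene and condition, combined over the 5 libraries by Cuffdiff, with a variance under its model. No value therefore has a replicate check, no test between conditions was possible, and the square root of the variance (model SD) is the only error given. The 5 libraries of C57.D300.F1 and the 5 of C57.CTL.F1 had been made for earlier work (the reused set), and the other 15 were newly made, so a comparison that crosses these sets cannot be told apart from the library set. Total counts lay between 6921688 and 8602900 per condition. Late germ cell markers (15 genes, all at 10 counts or more in every condition) summed to 106401, 89725, 36188, 8944 and 10754 for C57.CTL.F1, then C57.D300.F1, then C57.D300.F2, then FVB.CTL.F1 and last FVB.D300.F1. All lists of values over conditions below keep that order. In the same order, markers of the seminal vesicle (8 genes, some of them picked by the study from these libraries) summed to 236221, 1146, 1779, 2525 and 2317, and those of liver (12 genes) to 148938, 109961, 3682, 2465 and 1881. Sums were 24814, 29055, 31737, 39303 and 63543 for epididymal epithelium (14 genes, of which Cst11, Cst12, Lcn6 and Defb41 were under 3 counts in every condition but FVB.D300.F1) and 12525, 9954, 13465, 19605 and 17498 for general epithelium (7 genes). Those of smooth muscle and connective tissue (11 genes) were 51361, 54722, 57066, 45514 and 35885, those of leukocytes (13 genes) 32185, 40082, 48948, 35424 and 33245 and those of red cells (8 genes, Hba-a1 under 3 counts in every condition) 2414, 2031, 3339, 1427 and 6977. Cell types other than sperm were thus represented in every condition, and their part in the results on ribosomal protein genes was not tested. Fewer cells of a type and less RNA per cell cannot be told apart in such bulk samples. Many ribosomal protein genes have processed pseudogenes and close copies elsewhere in the genome, and the counting could have split reads among them, so single values are uncertain to that extent.

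Ribosomal proteins are made in nearly every cell in amounts that match each other, and in most tissues their mRNAs are among the most abundant. Transcription of many of these genes starts in a stretch of C and T, and the terminal oligopyrimidine (TOP) tract that results at the front of the mRNA links their translation to growth signals. Mature sperm are held to be translationally quiet for most nuclear mRNAs, and their RNA is regarded as a remainder of spermatogenesis together with RNA gained in the epididymis.

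RefSeq promoter windows (GRCm38.p6, 250 bases before to 50 after the annotated start) were found for 60 of the 81 members. An uninterrupted run of at least 8 pyrimidines (C or T, on the strand of the gene) within 20 bases of a start was present in 29 of them (48.3%), against 18.4% of all 27025 genes with a window. CCGGAAG, the core of the site bound by GABP and other ETS factors, was found on either strand of the 300 bases in 25 of them (41.7%) and in 9.93% of all genes. AAGATGG, the core of the YY1 site, was found in 9 of them (15%) and in 7.28% of all genes. The letters of both motifs do not contain each other, and a match is no evidence that a factor binds. The 29 members with such a run and the 31 without one had median log2 ratios of -0.32 and -0.29 for exposed over control F1 males in C57BL/6J, and of -0.16 and -0.11 in FVB/N. For C57.D300.F2 over C57.CTL.F1 the medians were -0.52 and -0.36, and the ranges overlapped in all 3 comparisons (-1.59 to 0.26 and -1.20 to 0.53 in the last). Start sites of 6 members are shown as examples of long runs (Rps6, Rpl35 and Rps24) and short ones (Rpl10l, Rpl3l and Rps28). They were chosen after their values and runs were seen, so no relation of run to level can be read from them. Each window gives 10 bases before and 20 from the start, 5′ to 3′ on the strand of the gene, and the capitals mark its longest pyrimidine run.
Rps6 (chr4:86857348-86857377, minus strand): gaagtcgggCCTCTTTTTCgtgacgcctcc
Rpl35 (chr2:39005112-39005141, minus strand): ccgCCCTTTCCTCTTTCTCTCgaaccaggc
Rps24 (chr14:24490668-24490697, plus strand): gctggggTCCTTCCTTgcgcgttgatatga
Rpl10l (chr12:66284382-66284411, minus strand): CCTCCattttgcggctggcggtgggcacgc
Rpl3l (chr17:24727816-24727845, plus strand): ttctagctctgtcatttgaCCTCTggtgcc
Rps28 (chr17:33824543-33824572, minus strand): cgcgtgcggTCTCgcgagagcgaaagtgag

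The capitals were 10 bases long in Rps6, 18 in Rpl35 and 9 in Rps24, against 5 in Rpl10l, 5 in Rpl3l and 4 in Rps28. In the same window, the longest run was 7 bases in Rplp0 and in Rps27l, which also had low ratios in some comparisons. Rps24 and Rpl3l each have 2 listed starts, of which 1 is shown.

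Ribosomal protein RNA was present in every condition, and its share was highest in C57.CTL.F1. All 81 members had at least 10 counts wherever they were measured, and 57 had at least 1000 in every condition. Over the 80 members with an estimate in all conditions, the counts summed to 236217, 176947, 155934, 181992 and 159174. These were 2.82%, 2.29%, 2.28%, 2.46% and 2.03% of the counts of all genes with an estimate in every condition, with model SDs of 0.267, 0.189, 0.167, 0.231 and 0.213 percentage points if the errors of the genes were independent. C57.CTL.F1 had the highest share, the other 4 conditions lay between 2.03% and 2.46%, and both exposed F1 conditions were below the control of their strain. The shares of C57.CTL.F1 and FVB.CTL.F1 overlapped when each was widened by its model SD. So did those of FVB.CTL.F1 and FVB.D300.F1. With the liver and seminal vesicle markers taken out of the total, the shares were 2.96%, 2.32%, 2.28%, 2.46% and 2.04%. Large-subunit genes held 1.93%, 1.53%, 1.55%, 1.65% and 1.36% of the counts, and small-subunit genes 0.893%, 0.75%, 0.73%, 0.803% and 0.673%. The count was highest in C57.CTL.F1 for 54 of the 80 members and lowest there for 1, against 23.9% and 19.6% of 17701 genes. This tally rests in part on the scaling, since C57.CTL.F1 also had the largest total. With the conditions scaled to the same total, C57.CTL.F1 was highest for 33 members and lowest for 5, against 14.5% and 32.2% of all genes. FVB.D300.F1 was then lowest for 42, against 29.6%, and C57.D300.F2 highest for 23, against 27.4%. In the deposited scaling the lowest value lay in C57.D300.F2 for 31 members, against 15.6% of all genes, and in FVB.D300.F1 for 24, against 25.3%. It lay in C57.D300.F1 for 20, against 19.4%, and in FVB.CTL.F1 for 4, against 20.1%.

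**Figure D1:**
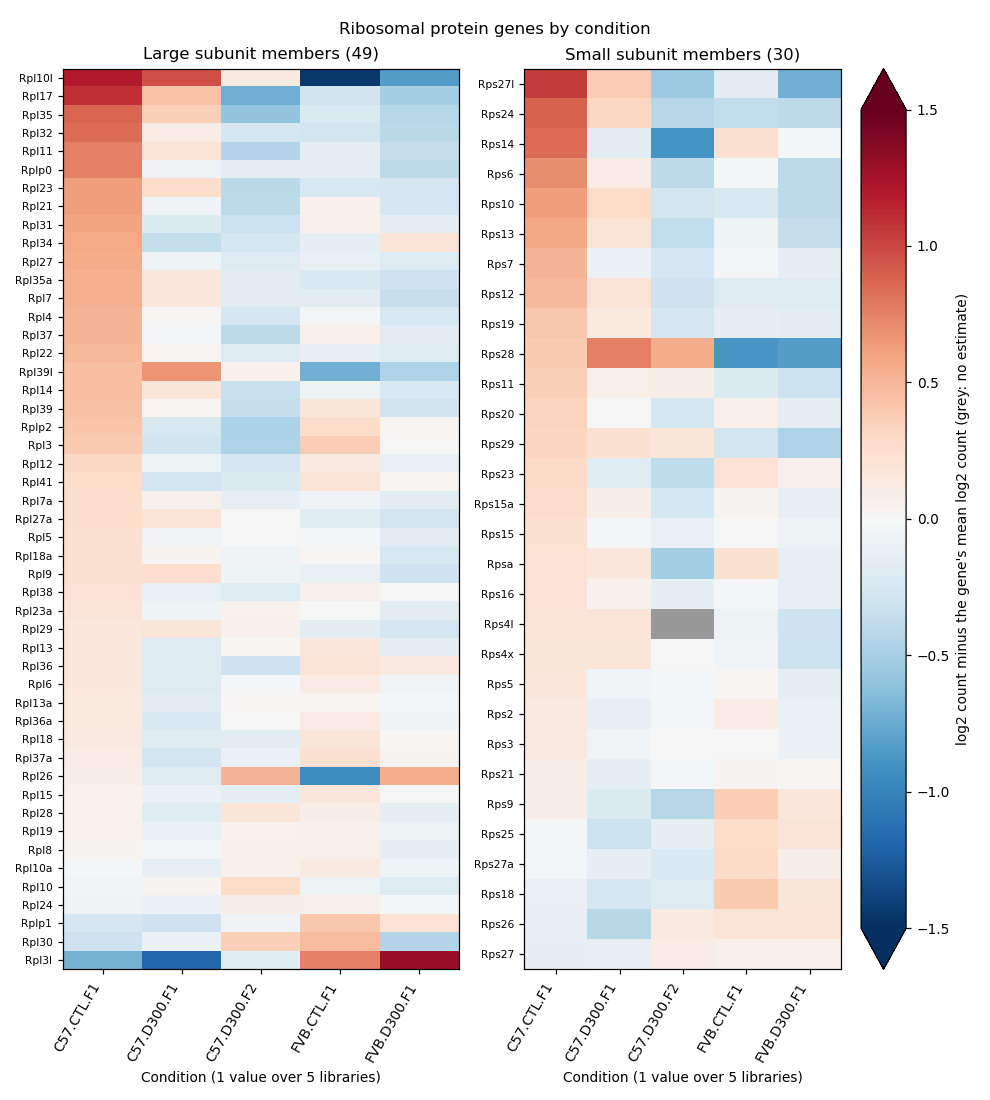
Estimated counts of 79 of the 81 ribosomal protein genes in the 5 conditions, as log2 count minus the mean log2 count of the gene, with 49 large-subunit genes on the left and 30 small-subunit genes on the right, each sorted by the value in C57.CTL.F1. Red is above and blue below the mean of the gene, and grey marks Rps4l in C57.D300.F2, which had no estimate. The C57.CTL.F1 column is red for most genes, while Rpl3l, Rpl10l and Rps28 differ mainly between the strains.

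The range over the conditions was close to that of genes with at least 100 counts in every condition, a set not matched to the members by count. The highest condition was less than 2-fold above the lowest for 64 of the 81 members, and the median of this fold was 1.57. Of all 17701 genes 54.9% were within 2-fold (median 1.88), and of the 8105 genes with at least 100 counts in every condition 75.9% were (median 1.56). Rpl19, a large-subunit protein near the exit of the peptide tunnel, varied by 1.12-fold, with counts of 1709.5, 1546, 1719, 1733 and 1574. Rpl24, Rpl8 and Rps3 varied by 1.14- to 1.17-fold. At the other end were the paralogs Rpl10l (6.19-fold), Rpl3l (5.61-fold) and Rps27l (3.4-fold), and among the common genes Rpl17 (3.55-fold), Rps14 (3.3-fold) and Rps28 (3.09-fold).

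Rpl4, a core protein of the large subunit whose loop lines the peptide tunnel, had the highest count of all members in each condition, with 16137, 11454, 9547, 11159.7 and 9609. Its model SDs were 10700, 6740, 5570, 10000 and 8300, and no difference between compared conditions exceeded its model SD. The next counts by mean were those of Rplp0, Rpl17, Rps6, Rpl3, Rpl41, Rpl7, Rpl13, Rps14 and Rpl21. The 10 highest members of each condition held 41.6%, 36.2%, 34.5%, 36.3% and 35.0% of all member counts, so the counts of C57.CTL.F1 were the most concentrated.

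Per length the order was different. On the scale of estimated counts per kb of the shortest coding transcript with a CCDS entry, averaged over the 5 conditions, the highest levels were those of Rpl41 (14400), Rpl17 (9180), Rps14 (8430), Rps6 (7730) and Rpl4 (7530). Rpl41 codes for a very short, highly basic peptide, and Rps6 for the substrate of the S6 kinases. The median over the 80 members with a length was 2425 counts per kb. The lowest levels were those of Rpl10l (33.9), Rpl39l (37.8), Rpl30 (51.1), Rpl3l (164) and Rpl26 (299). Of these, Rpl30 and Rpl26 are common proteins of every ribosome. Their mean model coefficients of variation (SD over count) were 1.41 and 1.59.

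In C57BL/6J F1 males, most ribosomal protein genes were slightly lower after prenatal DEHP, and none by 2-fold or more. The log2 ratio of C57.D300.F1 over C57.CTL.F1, computed after adding 1 to each count, was below 0 for 72 of the 81 members. Among all 16825 genes tested (an estimate in both conditions and at least 10 counts in 1 of them) 51.7% were below 0. The median of the members was -0.29 (quartiles -0.47 and -0.15, range -0.99 to 0.36), and that of all genes tested was -0.01. With equal totals the medians were -0.18 and 0.10. The interquartile range of the members was 0.32 log2 units and that of all genes with at least 100 counts 0.335. No member reached 1 log2 unit in either direction, where 1.09% of all genes were higher and 1.15% lower by that much. Under other scalings between 64 and 76 members were below 0, against 35.6% to 57.1% of all genes. Below the median of all genes lay 71 under every scaling tried, and the distance between the medians was -0.28 under each. A scaling shifts the log2 ratios of all genes by nearly the same amount. Both values are therefore nearly fixed in advance and are no check of the result. Large-subunit genes had a median of -0.35 (44 of 49 below 0) and small-subunit genes one of -0.25 (28 of 32 below 0).

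The lowest ratio was that of Rps14, whose human homolog is lost in a form of myelodysplastic syndrome. Its counts were 8342, 4197, 2529, 5491 and 4598, and the log2 ratio was -0.99. Next came Rpl34 (-0.92), with counts of 290.5, 153, 164, 178 and 226, and Rplp0 (-0.81), with 12488, 7139.6, 6705, 6687 and 5633. Control and exposed values of Rpl34 and Rplp0 lay within the model SD of their difference. The difference exceeded that model SD for 3 members, Rps14, Rpl31 and Rps27l, each of them lower, and for none in the other direction, against 3.13% of all genes lower and 3.45% higher. Rpl31 had 1273 counts (model SD 423) in C57.CTL.F1 and 729 (model SD 238) in C57.D300.F1. Among members with at least 100 counts, the highest ratios were those of Rps28 (0.36) and the X-linked Rpl10 (0.08), each within the model SD. Several marker lists were lower in C57.D300.F1 as well, with median log2 ratios of -0.16 for late germ cells (13 of 15 genes below 0), -0.37 for general epithelium (6 of 7), -0.63 for smooth muscle and connective tissue (6 of 11), -0.32 for liver (10 of 12) and -0.22 for red cells (4 of 6). All 8 seminal vesicle markers were lower, and 3 of them were under 3 counts in C57.D300.F1. Leukocyte markers had a median of 0.39 (11 of 13 above 0) and epididymal ones of 0.06 (4 of 8). The part of these in the ratios above was not tested.

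**Figure D2:**
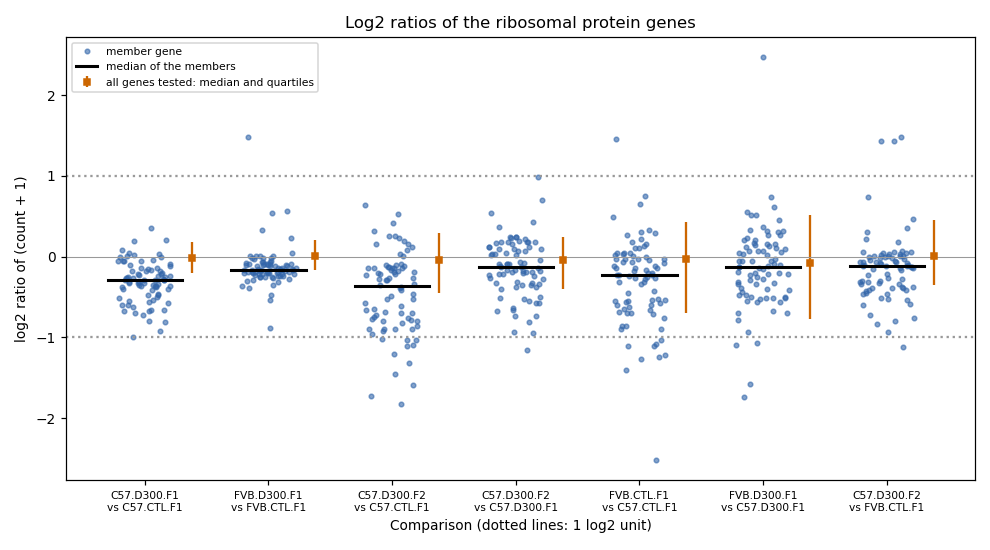
Log2 ratio of (count + 1) of each ribosomal protein gene (blue points) in 7 comparisons of conditions, with the median of the members (black bar) and, beside it in orange, the median and quartiles of all genes tested. In the comparisons of exposed with control F1 males, at the left, the points lie mostly below 0, with medians of -0.29 and -0.16 and with 9 and 10 members above 0.

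In FVB/N F1 males, too, most members were slightly lower after prenatal DEHP. The log2 ratio of FVB.D300.F1 over FVB.CTL.F1 was below 0 for 71 of 81 members, against 49.4% of 16471 genes, and its median was -0.16 (quartiles -0.22 and -0.09), against 0.01 for all genes. Under every scaling tried 72 members lay below the median of all genes, at a distance between the medians of -0.16 or -0.17. Scaling nearly fixes these values too, so they are no check. The members had an interquartile range of 0.129 log2 units, where all genes with at least 100 counts had 0.302. Large- and small-subunit genes had medians of -0.16 (44 of 49 below 0) and -0.15 (27 of 32 below 0). The lowest ratios among members with at least 100 counts were those of Rps27l (-0.54), Rpl39 (-0.47) and Rps6 (-0.38). Rpl39, on the X chromosome, codes for a small protein inside the peptide tunnel, and its counts were 4855, 3653, 2808, 4062 and 2923. Of these, the difference exceeded its model SD for Rps27l, and Rpl3l was the single member above it in the other direction, against 1.89% of all genes lower and 3.76% higher.

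Rpl26 was the single member higher by 1 log2 unit or more in FVB.D300.F1 (1.48), against 2.16% of all genes higher and 0.619% lower. Its counts were 157, 129, 209.5, 76.7 and 216, and its model SDs 214, 151, 212, 142 and 546 were of the size of the counts or larger. Marker lists moved both ways in this comparison. Late germ cell markers had a median log2 ratio of 0.40 (14 of 15 above 0), and red cell markers were higher in 6 of 6 (2.23). Epididymal markers summed to 39303 in FVB.CTL.F1, where 7 of the 14 reached 10 counts, and to 63543 in FVB.D300.F1, where 14 did. Lower, like the members, were smooth muscle and connective tissue (-0.49, 11 of 11 below 0), liver (-0.50, 11 of 12), seminal vesicle (-0.43, 4 of 6) and general epithelium (-0.13, 4 of 7), while leukocytes stood at 0.08. The part of these lists in the ratios of the members was not tested.

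The difference between the responses of the strains (log2 ratio in FVB/N minus that in C57BL/6J) had a median of 0.17 over the 81 members and of 0.03 over 17556 genes. It was above 0 for 59 members, against 53.3% of all genes, and below 0 for 22. With each condition scaled to the same total, 44 were below 0, against 65.7% of all genes, and the medians were -0.02 and -0.16. Under every scaling tried, 24 lay below the median of all genes, a count that scaling nearly fixes. By 1 log2 unit or more, 3 members were higher (Rpl26, Rpl34 and Rpl3l) and 1 lower (Rpl30), against 4.45% and 2.92% of all genes. Each strain stayed within its own library set in this difference, so strain and library set cannot be told apart in it.

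The second generation, C57.D300.F2, was compared with C57.CTL.F1 across the library sets, and the members were lower with a wider spread. The log2 ratio of C57.D300.F2 over C57.CTL.F1 had a median of -0.36 over 80 members (quartiles -0.79 and -0.14) and of -0.04 over 17114 genes. The medians were -0.08 and 0.26 with equal totals and -0.15 and 0.19 with upper quartile scaling, so the distance between them, -0.325 as deposited, was -0.335 and -0.333. As deposited 66 members were below 0, against 53.2% of all genes. Below the median of all genes were 66 members under every scaling, a count that scaling nearly fixes, like the distance between the medians. With the conditions scaled to the same total, 43 were below 0, against 32.7% of all genes. Lower by 1 log2 unit or more were 11 members and higher 0, against 10.2% and 4.1% of all genes. The 11 were Rpl17 (-1.83), Rps14 (-1.72), Rps27l (-1.59), Rpl35 (-1.46), Rps24 (-1.31), Rpl11 (-1.20), Rpl32, Rps6, Rpl10l, Rpl23 and Rpl21 (-1.01), chosen by that limit. With the conditions scaled to the same total, 5 members were past it, and the share of all genes there was not computed. In the deposited scaling, the share of members that far below was close to that of all genes. The difference exceeded its model SD for 27 members, all lower, against 18.2% of all genes lower and 8.72% higher.

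Rpl17, a large-subunit protein at the tunnel exit, had counts of 13593, 8526, 3824, 5132 and 4485 with model SDs of 6720, 3360, 1270, 2090 and 1470, so both reused conditions were above the 3 new ones. Rpl35, which also sits at the tunnel exit and whose start site holds the longest run shown above, had counts of 4593, 3231, 1672, 2174 and 1875. Rps24, a small-subunit protein mutated in some families with Diamond-Blackfan anaemia, had 3893, 2618, 1569, 1643 and 1611. In each of these genes C57.CTL.F1 was highest, C57.D300.F1 second, and the 3 new conditions were lower. Of the 80 members, 30 had both reused conditions above all 3 new ones (37.5%), against 31.0% of 17701 genes, and 5 the reverse (6.25%), against 24.9%. With a gap of more than 1.5-fold between the sets, 3 members were higher in the reused set (3.75%, Rpl10l, Rpl17 and Rps24), against 11.9% of all genes, and 0 in the new set, against 3.81%.

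The highest ratios of C57.D300.F2 over C57.CTL.F1 among members with at least 100 counts were those of Rpl3l (0.53), Rpl26 (0.41) and Rpl10 (0.31). Against C57.D300.F1, the second generation had a median of -0.13 over 80 members, which became 0.05 when the conditions were scaled to the same total and 0.06 with upper quartile scaling, so its sign rests on the scaling. The difference exceeded its model SD for 10 members lower and 2 higher (Rpl3l and Rps26), against 15.7% and 6.47% of all genes. The lowest members were Rpl17 (-1.16), Rpl35 (-0.95) and Rps27l (-0.93) and the highest Rpl3l (0.99), Rpl26 (0.70) and Rps26 (0.55). Rpl17 was the single member lower by 1 log2 unit (8.35% of all genes) and 0 were higher (2.69%), a split of 0 higher and 1 lower that became 1 and 0 with equal totals and with upper quartile scaling. Germ cell markers were lower in C57.D300.F2 than in both other C57BL/6J conditions (median log2 ratios -1.31 and -1.001), and liver markers had medians of -5.12 and -4.88. In the same order, the medians were -0.78 and -0.06 for smooth muscle and connective tissue, -0.10 and -0.72 for leukocytes, 0.24 and 0.51 for general epithelium, 0.45 and 0.35 for the epididymis and 0.78 and 0.59 for red cells. Seminal vesicle markers had medians of -8.599 (8 of 8 genes below 0) and 2.504 (7 of 7 above 0). The part of these lists was not tested.

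C57.D300.F2 and FVB.CTL.F1 belong to the same new library set and differ in strain, generation and exposure lineage together. The median log2 ratio of C57.D300.F2 over FVB.CTL.F1 was -0.12 over 80 members and 0.004 over 16969 genes, and it was -0.002 with equal totals. Below 0 were 58 members, against 49.6% of all genes, and above 0 were 22, against 50.4%. Of the 11142 genes tested with at least 100 counts in some condition, 6164 were below 0. The difference exceeded its model SD for 7 members lower and 2 higher (Rpl10l and Rps28), against 12.0% and 17.1% of all genes. Higher by 1 log2 unit or more were Rpl10l (1.49), Rpl26 (1.44) and Rps28 (1.43), that is 3 members where 11.6% of all genes were, and lower was Rps14 (-1.12), where 4.2% of all genes were. After Rps14, the lowest among members with at least 100 counts were Rpl3l (-0.93) and Rpl3 (-0.83), and below Rps28 the next highest was Rps29 (0.46). Rpl3, which takes part in forming the peptidyl transferase centre, had counts of 8240, 5082, 4544, 8061 and 6282 and a mean model coefficient of variation of 1.3.

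Between the strains, the ribosomal protein genes had modest differences in level. The log2 ratio of FVB.CTL.F1 over C57.CTL.F1 had a median of -0.23 over the 81 members (quartiles -0.62 and -0.002), against -0.03 over 17086 genes, and 61 were below 0, against 51.8% of all genes, and 20 above 0, against 48.2%. With equal totals 46 were below 0, against 42.6% of all genes, and the medians were -0.05 and 0.15. With upper quartile scaling the medians were -0.05 and 0.16. Lower by 1 log2 unit or more were 9 members, where 18.8% of all genes were, and higher was 1, where 7.5% were. The 9 were Rpl10l, Rpl17, Rps28, Rps24, Rps27l, Rpl39l, Rpl32, Rpl35 and Rpl26, with log2 ratios from -2.52 to -1.03, and the single higher one was Rpl3l (1.46). After Rpl3l, the highest ratios among members with at least 100 counts were those of Rplp1 (0.66) and Rps18 (0.49). The difference exceeded its model SD for 16 members lower and 2 higher, Rpl3l and Rplp1, against 25.3% and 15.9% of all genes.

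Between the exposed F1 conditions, FVB.D300.F1 over C57.D300.F1, the median was -0.13, against -0.07 over 17377 genes, and it was 0.02 with upper quartile scaling. Below 0 were 49 members, against 53.3% of all genes, and with upper quartile scaling 38, against 46.3%. Lower by 1 log2 unit or more were Rpl10l (-1.73), Rps28 (-1.58), Rps27l (-1.10) and Rpl39l (-1.07), 4 members where 19.9% of all genes were, and higher was Rpl3l (2.47), 1 member where 12.0% were. With upper quartile scaling 2 members were lower by that much, and the share of all genes there was not computed. The interquartile range over all genes with at least 100 counts was 1.154 log2 units in this comparison, and that over the members other than the 5 paralogs was 0.541. The next highest were Rpl26 (0.74) and Rps26 (0.62), and after Rps28 and Rps27l the lowest member with at least 100 counts was Rpl17 (-0.93). Without the members that hold a snoRNA gene, described below, this median was -0.01, above that of all genes by 0.06, where with them it was lower by 0.056. Germ cell markers had median log2 ratios of -3.04 and -2.53 in these 2 comparisons of strains, liver markers -6.89 and -7.04, leukocyte markers -1.09 and -1.71, smooth muscle and connective tissue -0.37 and -0.52, general epithelium 0.91 and 0.62 and red cells -0.47 and 1.98. Epididymal markers had medians of 0.633 (6 of 8 genes above 0) and 4.885 (14 of 14). Those of the seminal vesicle were -9.617 (8 of 8 below 0) and 1.736 (5 of 6 above 0). Their part in the ratios of the members was not tested.

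Rps28, one of the smallest proteins of the small subunit, stood out among the common genes. Its counts were 1159.6, 1484, 1296, 481 and 497, with model SDs of 291, 392, 329, 112 and 119. All 3 C57BL/6J conditions were above both FVB/N conditions, also within the new library set, where C57.D300.F2 was 2.7-fold above FVB.CTL.F1, and exposed and control F1 males differed by less than the model SD in both strains (log2 ratios 0.36 and 0.05). Of the 80 members, 14 had all 3 C57BL/6J conditions above both FVB/N conditions (17.5%), against 32.4% of all genes, and 7 the reverse (8.75%), against 29.4%. With a gap of more than 1.5-fold, these were Rps28 and Rpl10l on one side (2.5%, against 12.7% of all genes) and Rpl3l on the other (1.25%, against 6.99%). Rps26 (1219, 1001, 1461, 1529.5 and 1537) and Rps18 (2627, 2352, 2474, 3703 and 3216), both of the small subunit, were among the 7, with smaller gaps.

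**Figure D3:**
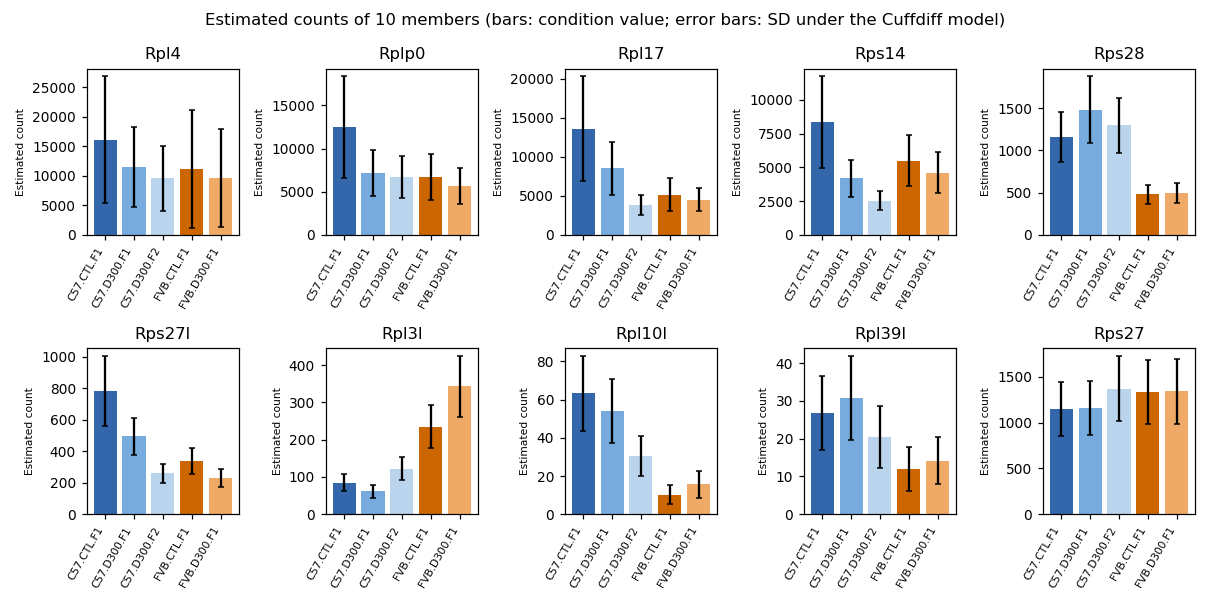
Estimated counts (linear axis from 0, its own range in each panel) of 10 ribosomal protein genes in the 5 conditions, with C57BL/6J in blue and FVB/N in orange, and error bars of 1 SD under the Cuffdiff model. Rps28 is lower and Rpl3l higher in both FVB/N conditions, Rpl10l is lowest in FVB/N, and Rps27 is nearly level.

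The stalk of the large subunit recruits the translation factors, with Rplp0 as its base and Rplp1 and Rplp2 as paired arms. Rplp0 was highest in C57.CTL.F1, 1.75-fold above C57.D300.F1, and the 4 conditions other than C57.CTL.F1 lay between 5633 and 7139.6 counts. Rplp1 had 1965, 1895, 2251, 3096 and 2718 counts, with both FVB/N conditions highest. Rplp2 had 506, 321, 272, 459 and 385, with C57.D300.F2 lowest. The order of the conditions thus differed among the 3 stalk genes, though most differences lay within the model SD. For Rplp0 it was exceeded in no comparison, and for Rplp1 in FVB.CTL.F1 over C57.CTL.F1. Rplp2 in C57.D300.F2 was below C57.CTL.F1 and FVB.CTL.F1 by more than the model SD. Rpsa, a small-subunit protein also described as a laminin receptor, had 2535, 2439, 1542, 2542 and 2002 counts, and C57.D300.F2 was below C57.CTL.F1, C57.D300.F1 and FVB.CTL.F1 by more than the model SD of each difference.

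Of the 5 paralogs, Rpl10l, Rpl3l and Rps27l were among the members with the widest range over the conditions. Rpl39l varied by 2.59-fold and Rps4l by 1.43-fold. Rpl10l is an autosomal retrogene of the X-linked Rpl10 that supplies the protein in male meiosis, when the X chromosome is silent. Its counts were 63.2, 54.2, 30.4, 10.2 and 15.6 (model SDs 19.7, 16.7, 10.6, 5.0 and 6.95), and it made up 1.77, 1.44, 0.693, 0.298 and 0.49% of the counts of Rpl10 and Rpl10l together. C57.CTL.F1 was highest and FVB.CTL.F1 lowest, with C57.D300.F2 between the F1 conditions of both strains. Rpl39l, the paralog of Rpl39 that is found in testis, had 26.8, 30.8, 20.4, 11.9 and 14.2 counts, or 0.548, 0.837, 0.722, 0.292 and 0.483% of its pair. Both FVB/N conditions were lowest here too. The parent genes Rpl10 (3502, 3707, 4354, 3414 and 3166) and Rpl39 (4855, 3653, 2808, 4062 and 2923) varied less. Rpl10 was also lowest in both FVB/N conditions, whereas Rpl39 in FVB.CTL.F1 was above C57.D300.F1.

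Of the 15 late germ cell markers, 13 were highest in C57.CTL.F1 and 2, Prm1 and Akap4, in C57.D300.F1, and 14 were lowest in FVB.CTL.F1. Prm2, which codes for a protamine that packs sperm DNA, had 20903, 12610.3, 6651, 1584 and 2019 counts, and Odf1, of the outer dense fibres of the tail, 21227, 20238, 7981, 2589 and 2944. Rpl10l was likewise highest in C57.CTL.F1 and lowest in FVB.CTL.F1, whereas Rpl39l was highest in C57.D300.F1. The 5 points come from the same libraries, and the part of germ cell content in the values of Rpl10l and Rpl39l was not tested.

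Rpl3l, which replaces Rpl3 in ribosomes of striated muscle, went the other way. Its counts were 84.5, 61.1, 122, 235 and 343, with model SDs of 23.6, 18.3, 31.7, 57.9 and 81.5, and its part of the Rpl3 pair was 1.01, 1.19, 2.62, 2.83 and 5.18%. Both FVB/N conditions were above all C57BL/6J conditions, by 2.78-fold between the controls and 5.61-fold between the exposed F1 males. Prenatal exposure went with a lower value in C57BL/6J (-0.46) and a higher one in FVB/N (0.55), the second being beyond the model SD of the difference. The summed markers of smooth muscle and connective tissue, given above, were below every C57BL/6J condition in both FVB/N ones. Markers of striated muscle were not examined.

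Rps27l, a paralog of Rps27 known as a target of p53, had 784, 494, 259, 336 and 231 counts with model SDs of 222, 115, 60.6, 81.7 and 55.8. It was lower after exposure in both strains and lowest in FVB.D300.F1, and with 40.5, 29.9, 15.9, 20.1 and 14.7% of its pair it was the most abundant paralog relative to its parent. Rps27, whose counts were 1149.9, 1160, 1372, 1338 and 1341, was nearly level, so the share of the pair followed Rps27l. Rps4l, which GENCODE M21 lists as a transcribed processed pseudogene, had 117, 117, 96.7 and 82.1 counts in the 4 conditions with an estimate, and Cuffdiff gave none in C57.D300.F2. It made up 5.0, 5.04, 4.86 and 4.99% of the pair with Rps4x in those conditions, a nearly constant part.

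The X-linked members were Rpl10, Rpl36a, Rpl39 and Rps4x. Their median log2 ratio was -0.19 in C57BL/6J and -0.23 in FVB/N for exposed over control F1 males, beside -0.29 and -0.16 for all members. Rps4x, a small-subunit protein, had 2221, 2207, 1959.6, 1892 and 1563 counts and Rpl36a 945, 727, 859, 931 and 822.

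Introns of ribosomal protein genes hold many of the small nucleolar RNAs (snoRNAs) that guide the modification of ribosomal RNA, and all-RNA-seq reads both. An annotated snoRNA gene lay inside 29 members, and 23 of them had at least 1 such snoRNA in the table, 31 in all. The 31 snoRNAs summed to 128319, 109784, 85630, 121301 and 169390 counts, and their 23 hosts to 89040, 67066, 57039, 66778 and 57149. In FVB.D300.F1 against FVB.CTL.F1 the snoRNAs were thus higher while the hosts were lower. All 31 snoRNAs had a log2 ratio above 0 (0.20 to 0.99, median 0.57), against 50.6% of all genes, and all 31 were above their host. The other 74 snoRNAs, taken by a Snora or Snord symbol and not placed inside members by the annotation, had a median of 0.61, also with 74 of 74 above 0. Among them are Snord95 and Snord96a inside Rack1 and Snord73a inside Rps3a1, ribosomal protein genes that were not counted as members. In the same comparison in C57BL/6J the 31 had a median of 0.18 with 20 above 0, and 24 were above their host, while the other 73 snoRNAs tested had a median of 0.21 with 52 above 0. The higher level in FVB.D300.F1 was therefore shared by snoRNAs inside and outside the members.

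Snord15b, inside Rps3, had 12740.3, 9238, 8099, 15531 and 22968 counts, and Rps3 itself 2631, 2332, 2391, 2392 and 2251. Snord83b, inside Rpl3, had 25518, 26039, 10697, 13445 and 19074, and Snord32a, inside Rpl13a, 23123, 13422, 13223, 16884 and 19652. The counts were 3.39 to 10.2 times those of the host for Snord15b, 1.67 to 5.12 times for Snord83b and 6.74 to 10.8 times for Snord32a. How the authors' counting assigned reads that overlap both is not given in the sources used here.

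**Figure D4:**
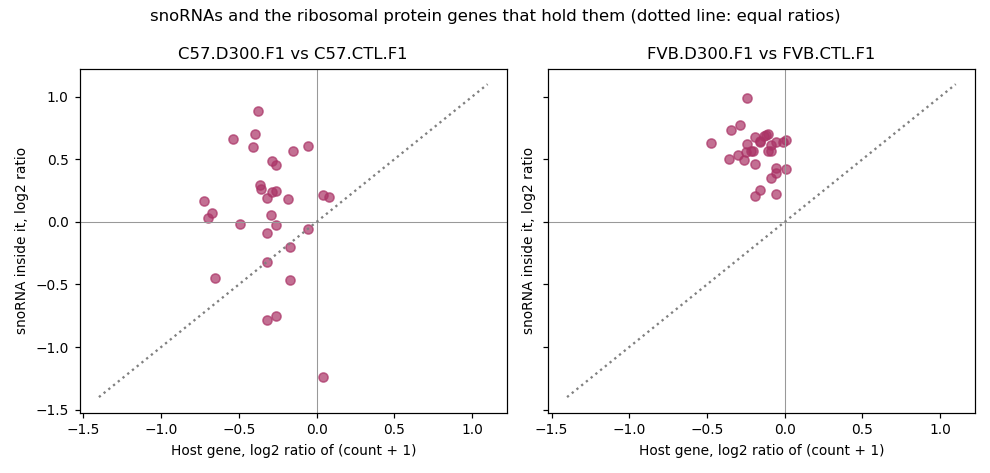
Log2 ratio of (count + 1) of each of 31 snoRNAs against that of the ribosomal protein gene that holds it, for exposed over control F1 males of C57BL/6J (left) and FVB/N (right), with a dotted line where both are equal. On the right all 31 points lie above 0 and above the line, while on the left 24 of 31 lie above the line.

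Large model errors were frequent among these hosts. The model coefficient of variation, averaged over conditions, was above 0.5 in 12 of the 29 members with a snoRNA gene inside (41.4%, median 0.432) and in 3 of the 47 common members without one (6.38%, median 0.278), which were Rps15, Rpl26 and Rpl34. Of 8127 genes with at least 100 counts in every condition with an estimate, 4.31% were above 0.5, with a median of 0.245. Among the highest values were those of Rpl13a (2.3), which also acts in the silencing of inflammatory mRNAs, Rps15 (1.63), Rpl26 (1.59) and Rpl30 (1.41). Rpl13a had counts of 2151, 1721, 1961, 1986 and 1907, with model SDs of 5710, 3570, 3800, 4340 and 5040, and its highest condition was 1.25-fold above its lowest. Without the members that hold a snoRNA gene, the medians of exposed over control F1 males were -0.29 in C57BL/6J and -0.155 in FVB/N, and that of FVB.D300.F1 over C57.D300.F1 moved from -0.13 to -0.01.

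**Figure D5:**
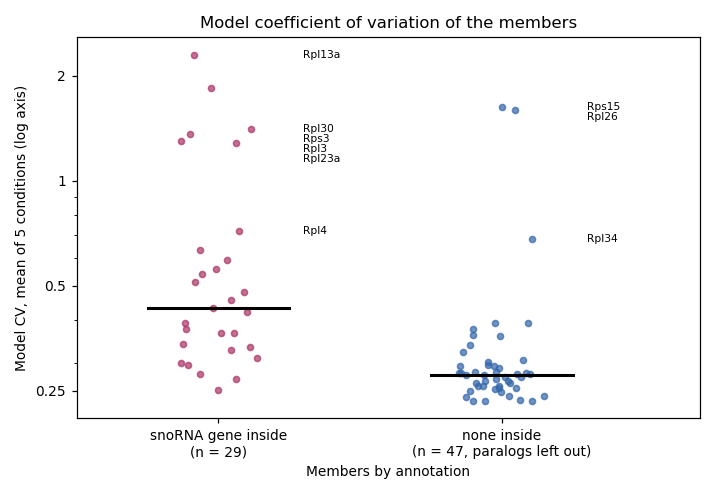
Model coefficient of variation (SD over count under the Cuffdiff model, mean of 5 conditions, log axis) of 29 ribosomal protein genes with an annotated snoRNA gene inside and of 47 common genes without one, with black bars at the medians of 0.432 and 0.278. Named points are among the highest in their group, and 6 of the 9 hold a snoRNA gene.

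Other genes of translation were compared as lists. In exposed over control C57BL/6J F1 males, the median log2 ratio was -0.20 over 77 mitochondrial ribosomal protein genes (64 below 0), -0.10 over 16 translation factors and other TOP mRNAs (11 below 0), -0.10 over 18 ribosome biogenesis genes (15 below 0) and -0.23 over 79 nuclear genes of the respiratory chain and ATP synthase (68 below 0). The cytosolic ribosomal protein genes, at -0.29, had the lowest median of these. For FVB.D300.F1 over FVB.CTL.F1, the medians were -0.05, -0.16, -0.07 and -0.16 in the same order, and TOP mRNAs, the respiratory chain and the cytosolic ribosomal proteins each stood at -0.16. For C57.D300.F2 over C57.CTL.F1, they were -0.43, -0.18, -0.15 and -0.71, so the respiratory chain was lower there than the members (-0.36).

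A few ribosomal proteins have symbols outside the pattern and were not counted as members. Fau, which fuses a ubiquitin-like protein to a small-subunit protein, had 1641, 1405, 1272, 1364 and 1263 counts, and Rack1 (Gnb2l1), a scaffold on the small subunit, 5995, 4750.1, 4459, 4988 and 4355. Rpl36al (1213, 926, 588, 686 and 666), Rpl22l1 (139, 136, 141, 164 and 183) and Rpl7l1 (355, 284, 208, 269 and 253) are paralogs of members. Rps3a1, added to these after its values were seen, had 5150.3, 4135, 3871, 3483 and 3330.1 counts.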

How the data were processed

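RNA from cauda epididymal sperm had been read by all-RNA-seq in 25 libraries. Per the study's methods and the labels, ribosomal RNA was depleted, the RNA was fragmented and its ends treated, and small RNA libraries were built. The authors removed the RA3 adapter, kept reads of at least 18 bases, mapped them to mm10 with TopHat and quantified genes with Cuffdiff. The submitters' processing notes also name CASAVA 1.8.2. The gene annotation and the Cuffdiff options are not given in the sources used here. The deposited values are a signal, namely an estimated count per gene and condition that the authors' Cuffdiff run combined over 5 libraries and scaled between libraries without dividing by gene length, and the variance of that count under its model. Values with a status other than OK (71 genes) were left out, and 10 columns were used.

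From these, log2 ratios were computed after adding 1 to each count, over genes with an estimate in both conditions and at least 10 counts in 1 of them. A member counted as higher or lower at 1 log2 unit, and separately where the difference exceeded the root of the summed model variances. Counts under 3 were taken as the floor of detection, which covers counting error only. With 1 value per condition no spread between libraries, interval or p-value could be had. Shares are over the 24287 genes with an estimate in all conditions. Positions, lengths and snoRNA genes came from GENCODE M21 (GRCm38, the build mm10), and start windows from RefSeq (GRCm38.p6). Genes are named by rank: the 10 highest counts, the 5 highest and 5 lowest levels per kb, the 3 highest and 3 lowest ratios of each comparison among members with at least 100 counts, the stalk genes, Rpsa, the paralogs with their parents, and the X-linked members. Genes named for a pattern over conditions, or for a large or small model error or fold, were chosen after their values were seen. The members and all lists were chosen with earlier results of these data known. Alternatives were other scalings (equal totals, median-of-ratios, upper quartile), 0.1 or 10 in place of the added 1, a minimum of 100 counts or no minimum, a limit of 2 log2 units, the model SD as a further limit, values under 3 set to 3, and lists without the paralogs. Lists without the snoRNA hosts, and totals without liver and seminal vesicle markers, were added after seeing the data. The values of some single genes, members and others, are not reported here. The procedure was run on simulated data whose planted changes were larger than the median shifts of the members and whose errors were capped. It therefore does not show how well shifts of the size reported here are recovered. Python 3.11.15, numpy 2.4.6, pandas 2.3.3 and matplotlib 3.10.9 were used.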

Additional observations from a re-analysis of the deposited data

Results flagged for a closer look

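Opposite directions of the ratio of exposed over control F1 males in the strains, with a difference of at least 1 log2 unit, were found in 4 members. The difference was not tested, since each condition has 1 value. The share of all genes that meet this rule was not computed. A difference of at least 1 log2 unit alone was reached upward by 4.45% and downward by 2.92% of all genes, so the number of members is not unusual. FVB/N minus C57BL/6J came to 1.768 for Rpl26, to 1.258 for Rpl34, to 1.007 for Rpl3l and to -1.097 for Rpl30. Rpl3l was the one of these whose difference in FVB/N exceeded its model SD. Rpl30 had 20.8 to 39.3 counts per condition, and the model SDs of Rpl26 were of the size of its counts.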

How the results depend on the processing

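No paired analysis was possible because the table holds 1 value per condition and none of single libraries, and leaving out single libraries was not run for the same reason. Of 80 alternative medians of the members, 69 stayed within 1.5 times the deposited value with its sign, and 11 did not. With equal totals the medians over C57.CTL.F1 were -0.178 for exposed F1 males, -0.078 for the second generation and -0.054 for FVB.CTL.F1, and they were 0.053 in C57.D300.F2 over C57.D300.F1, -0.002 in C57.D300.F2 over FVB.CTL.F1 and -0.02 for the difference between the responses. With upper quartile scaling they were -0.146 in C57.D300.F2 and -0.046 in FVB.CTL.F1 over C57.CTL.F1, and 0.059 in C57.D300.F2 and 0.023 in FVB.D300.F1 over C57.D300.F1. The last was -0.013 in the deposited scaling without the snoRNA hosts. All 15 alternative shares moved by less than the model SD of the share. Scaling moved the median of all genes most in C57.D300.F2 over C57.CTL.F1, from -0.04 to 0.257 at equal totals. Counts of members past 1 log2 unit moved as follows, and the matching shares of all genes were computed in the deposited scaling only. With median-of-ratios factors, 1 member in place of 0 was lower in C57.D300.F1 than in the vehicle males. At equal totals and with upper quartile scaling, 5 in place of 11 were lower in C57.D300.F2 and 5 in place of 9 in FVB.CTL.F1, each over C57.CTL.F1, and in C57.D300.F2 over C57.D300.F1 there was 1 higher and 0 lower in place of 0 and 1. A pseudocount of 0.1 also gave 1 higher in the last of these. In FVB.D300.F1 over C57.D300.F1, 2 in place of 4 were lower with upper quartile scaling or a minimum count of 100. At a limit of 2 log2 units the counts were 0, except for 1 lower in FVB.CTL.F1 and 1 higher in FVB.D300.F1, each over the C57BL/6J condition of the same treatment. When the model SD had to be exceeded too, 0 in place of 1 were higher in exposed FVB/N males. For the difference between the responses of the strains, 0 in place of 1 were lower with a pseudocount of 10, a minimum count of 100, the limit of 2 log2 units or the model SD, and 1 in place of 3 was higher with the model SD. The cause of these changes was not tested. Without single-library values, differences of the size of the medians given here cannot be set against a spread between animals.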
